A study of Mus musculus with 24 samples.

Results

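Medag, the mesenteric estrogen-dependent adipogenesis gene, was followed together with 7 further genes of the adipogenic program (Pparg, Cebpa, Cebpb, Cebpd, Fabp4, Lpin1, and Prdm16) in light-stimulated mouse muscle tissue. These 8 genes were taken by gene name out of 56941 genes in the count and TPM (transcripts per M) tables. Medag was chosen by its rise at 1 and 4 Hz in these same libraries, so its values are given below as a description and carry no test. The other 7 genes were also chosen with earlier results of these data known. The question was whether the other adipogenic regulators moved with stimulation frequency and how their levels stood beside those of fat cell marker genes and muscle genes in the same tissues.

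Bulk RNA-seq libraries came from 2D muscle tissues of C2C12, a mouse myoblast line, that expressed the light-gated cation channel ChR2(H134R) fused to tdTomato, and the unstimulated controls carried this channel too. Tissues were grown on fibrin hydrogels with microgrooves, differentiated in horse serum with IGF-1, and given daily sessions of blue light (30 min) at a frequency of 1, 4, or 10 Hz, or left as control, with 6 libraries per condition and 24 in all. Because all tissues came from 1 engineered myoblast line in a dish, they held no fat depot, blood vessels, or other resident cells of a muscle, and the control tissues twitched on their own. The study describes the 6 tissues of a condition as biological replicates, so the p-values below measure the spread between tissues grown from this line.

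Adipogenesis runs as a transcriptional relay. C/EBP beta and C/EBP delta are switched on early and raise C/EBP alpha and the nuclear receptor PPAR gamma, which sustain each other and turn on genes of lipid storage such as Fabp4. Myoblasts normally keep this relay low, and C2C12 cells can be pushed into it by forced expression of PPAR gamma and C/EBP alpha. Prdm16 steers muscle-related precursors toward brown fat, and Lpin1 makes the diacylglycerol used for triglyceride and also acts as a coactivator in the nucleus.

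In the GENCODE M39 annotation of GRCm39, matched by Ensembl identifier, Medag (ENSMUSG00000029659) lay on chr5:149334629-149356015 on the plus strand with 5 exons in its canonical transcript. Pparg (ENSMUSG00000000440) lay on chr6:115337675-115468268 on the plus strand with 8 exons. The single-exon genes Cebpa (ENSMUSG00000034957), Cebpb (ENSMUSG00000056501), and Cebpd (ENSMUSG00000071637) lay on the plus strand of chr7:34818718-34821353, chr2:167530835-167532338, and chr16:15705150-15708895. On the minus strand, Lpin1 (ENSMUSG00000020593) lay on chr12:16584818-16703913 with 21 exons, Fabp4 (ENSMUSG00000062515) on chr3:10268785-10273737 with 4, and Prdm16 (ENSMUSG00000039410) on chr4:154400581-154721625 with 17. Cebpb overlapped Peds1, Cebpd overlapped Spidr, and Lpin1 overlapped Ntsr2 on the opposite strand, and although the library kit was directional, it is not stated whether the counting used strand, so reads of these partners may not have been told apart. Medag overlapped the same-strand long noncoding RNA Gm20488, which held at most 10.8 counts in any library against 188 to 2731 counts for Medag.

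The sequence upstream of the start is shown for Medag, Cebpa, Cebpb, and Lpin1, whose mean levels were higher at 1 and 4 Hz than in control. It is also shown for the downstream start of Pparg, the target of the C/EBP factors. RefSeq promoter entries of GRCm38.p6 were matched by symbol for 6 of the 8 genes, and Cebpd and Fabp4 had no entry. Each run holds the 250 bases before a start, read 5′ to 3′ on the strand of the gene. Capitals mark matches on either strand to the C/EBP core TTNNGCAA, the short cyclic AMP site TGACG, the TATA box TATAAA, and the nuclear receptor hexamer AGGTCA, and no capital runs overlap. The windows were chr5:149411499-149411748 (plus) for the first of 2 Medag starts, chr7:35119043-35119292 (plus) for Cebpa, chr2:167688665-167688914 (plus) for Cebpb, chr12:16610967-16611216 (minus) for Lpin1, and chr6:115421816-115422065 (plus) for the third of 3 Pparg starts.
Medag: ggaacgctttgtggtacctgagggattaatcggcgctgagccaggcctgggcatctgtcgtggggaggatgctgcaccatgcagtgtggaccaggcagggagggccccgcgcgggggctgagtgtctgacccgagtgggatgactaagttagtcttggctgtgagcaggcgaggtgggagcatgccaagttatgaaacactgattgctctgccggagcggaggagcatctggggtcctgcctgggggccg
Cebpa: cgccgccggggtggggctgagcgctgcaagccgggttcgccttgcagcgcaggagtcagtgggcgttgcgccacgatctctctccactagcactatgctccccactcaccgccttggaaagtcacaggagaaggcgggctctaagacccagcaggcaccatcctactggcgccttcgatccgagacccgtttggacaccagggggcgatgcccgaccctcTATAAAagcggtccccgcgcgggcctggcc
Cebpb: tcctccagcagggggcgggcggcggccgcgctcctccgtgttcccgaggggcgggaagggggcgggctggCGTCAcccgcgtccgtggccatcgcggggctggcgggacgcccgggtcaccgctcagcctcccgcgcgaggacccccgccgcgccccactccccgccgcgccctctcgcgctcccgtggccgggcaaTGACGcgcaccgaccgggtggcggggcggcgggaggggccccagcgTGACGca
Lpin1: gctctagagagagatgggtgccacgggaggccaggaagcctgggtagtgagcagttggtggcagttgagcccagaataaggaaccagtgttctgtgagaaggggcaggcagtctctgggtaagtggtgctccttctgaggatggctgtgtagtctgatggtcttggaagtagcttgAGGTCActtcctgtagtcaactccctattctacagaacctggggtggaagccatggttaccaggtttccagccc
Pparg: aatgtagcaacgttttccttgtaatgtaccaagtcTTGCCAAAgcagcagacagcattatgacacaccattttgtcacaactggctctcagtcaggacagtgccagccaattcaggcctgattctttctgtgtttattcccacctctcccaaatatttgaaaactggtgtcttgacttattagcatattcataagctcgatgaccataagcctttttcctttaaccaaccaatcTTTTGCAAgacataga

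The C/EBP core occurred 2 times before the third Pparg start, beginning at bases -215 and -16 counted from the start. It was found at least 1 time in 9.56% of 32851 RefSeq windows of this length. The first and second Pparg starts, not shown, had 0 C/EBP cores. They held the nuclear receptor hexamer at bases -28 and -9, and the second also had a TATA box at base -29. The short cyclic AMP site occurred 3 times before Cebpb (bases -180, -53, and -7) and in 17.8% of all windows. A TATA box stood at base -30 of Cebpa (12.4% of all windows), and the nuclear receptor hexamer at base -74 of Lpin1 (14.0% of all windows). Neither Medag window held any of these 4 motifs, nor the full cyclic AMP element TGACGTCA, the AP-1 site TGANTCA, the muscle E-box CAGCTG, the CCAAT box CCAAT, or the GC box GGGCGG, which were present in 1.55%, 6.75%, 13.0%, 33.8%, and 32.7% of all windows. The short site TGACG lies within the full element TGACGTCA. Because neither Medag window held any of the 9 motifs, Medag, Cebpa, Cebpb, and Lpin1 could have none in common in these windows. This says nothing of factors bound there or elsewhere.

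Libraries held 4.09 to 15.2 M counts (4.19 to 7.65 M in control). In the 24 libraries, 25 rows for non-polyadenylated small RNAs took a share of the raw total that differed between conditions. This share, in counts per M (mega) of the library total (CPM), was 98.8 to 169 in control, 15.03 to 70.2 at 1 Hz, 18.3 to 51.1 at 4 Hz, and 38.5 to 272 at 10 Hz, so that neither 1 nor 4 Hz overlapped control. The study selected poly(A) RNA, and its labels add that low-input samples were depleted of ribosomal RNA without naming them. Library preparation and stimulation therefore cannot be told apart for any gene that moves with this share, and its values are given beside the results they touch. When the log2 share was added to the fit, 1 gene of 13318 was called higher and 0 lower at 1 Hz against control (edgeR). Because the share separated control from 1 and 4 Hz, this fit cannot tell share from stimulation in those comparisons and has little power there. A call lost with the covariate therefore leaves the cause untested.

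Medag stood above control at 1 and 4 Hz and nearer to control at 10 Hz. In CPM on TMM-scaled library sizes (the trimmed mean of M-values scaling of edgeR), control libraries ran from 36.2 through a median of 41.03 to 43.9. The 1 Hz libraries ran from 69.2 (median 129) to 186, the 4 Hz libraries from 85.3 (median 185) to 237, and the 10 Hz libraries from 28.99 (median 49.5) to 94.01. Every library at 1 and 4 Hz lay above every control library, whereas at 10 Hz 3 of 6 lay above all controls, 1 lay below all of them, and 2 lay among them. The means were 40.4 ± 3.61 CPM in control, 125 ± 40.7 at 1 Hz, 175 ± 51.1 at 4 Hz, and 55.7 ± 25.2 at 10 Hz (SD, n = 6 each), so that control was the tightest of the 4 groups.

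The fitted log2 fold change of Medag against control was 1.64 ± 0.25 (SE) at 1 Hz, 2.12 ± 0.25 at 4 Hz, and 0.46 ± 0.25 at 10 Hz, or 3.12-fold, 4.33-fold, and 1.37-fold. Between frequencies, it was 0.47 ± 0.24 for 4 Hz against 1 Hz, with overlapping libraries, and -1.18 ± 0.25 and -1.66 ± 0.25 for 10 Hz against 1 Hz and 4 Hz. Among the 13318 genes tested, this placed Medag 68th from the top at 1 Hz and 41st at 4 Hz, as follows from how it was chosen. In the order of levels (4 Hz, 1 Hz, 10 Hz, control), the neighbours 4 and 1 Hz overlapped, 1 and 10 Hz overlapped, and 10 Hz and control overlapped.

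**Figure D1:**
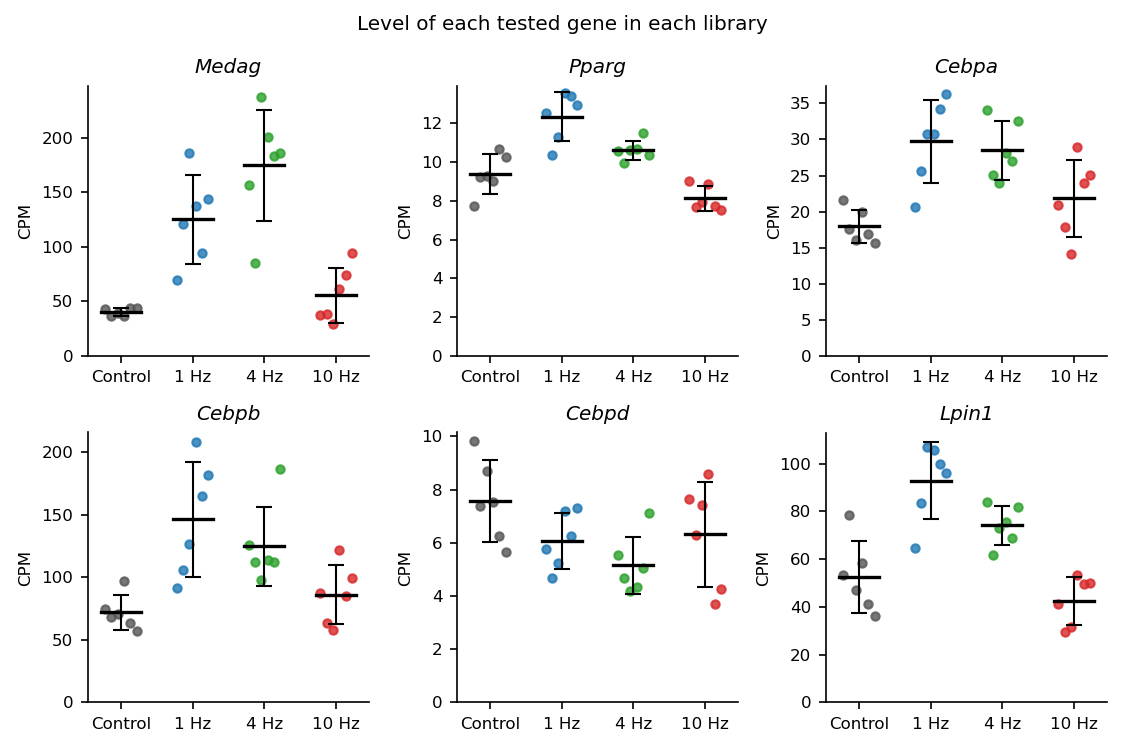
Level of Medag, Pparg, Cebpa, Cebpb, Cebpd, and Lpin1 in CPM (y axis, from 0) in the 6 libraries of control, 1, 4, and 10 Hz (x axis); points are libraries, thick bars are means, and thin bars are SDs. Medag at 1 and 4 Hz lies wholly above the control libraries (36.2 to 43.9 CPM), Lpin1 at 10 Hz lies wholly below 1 and 4 Hz, and Cebpd is lowest at 4 Hz.

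The small RNA share and Medag ran broadly opposite ways between libraries at 10 Hz and, less regularly, at 1 Hz, but not in control or at 4 Hz. At 10 Hz, libraries 1 to 3 held 178, 272, and 110 CPM of small RNA and 37.8, 38.1, and 28.99 CPM of Medag. Libraries 4 to 6 held 81.4, 67.6, and 38.5 CPM of small RNA and 60.9, 74.2, and 94.01 CPM of Medag. At 1 Hz the lowest Medag value (69.2 CPM, library 1) came with the highest small RNA share (70.2 CPM). The highest Medag value there (186 CPM, library 3) came with the lowest share (15.03 CPM). Library 5 went the other way, with a lower share than library 2 (18.1 against 36.2 CPM) and less Medag (94.4 against 121 CPM). At 4 Hz, by contrast, library 3 had the highest share (51.1 CPM) and the most Medag (237 CPM). In control, library 6 likewise had the highest share and the most Medag (169 and 43.9 CPM), and libraries 2 and 4, with the lowest shares (98.8 and 119 CPM), had the least Medag (36.6 and 36.2 CPM). With the share as a covariate, the log2 fold change of Medag was 0.74 at 1 Hz and 1.29 at 4 Hz, and its part in the difference was not tested.

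**Figure D2:**
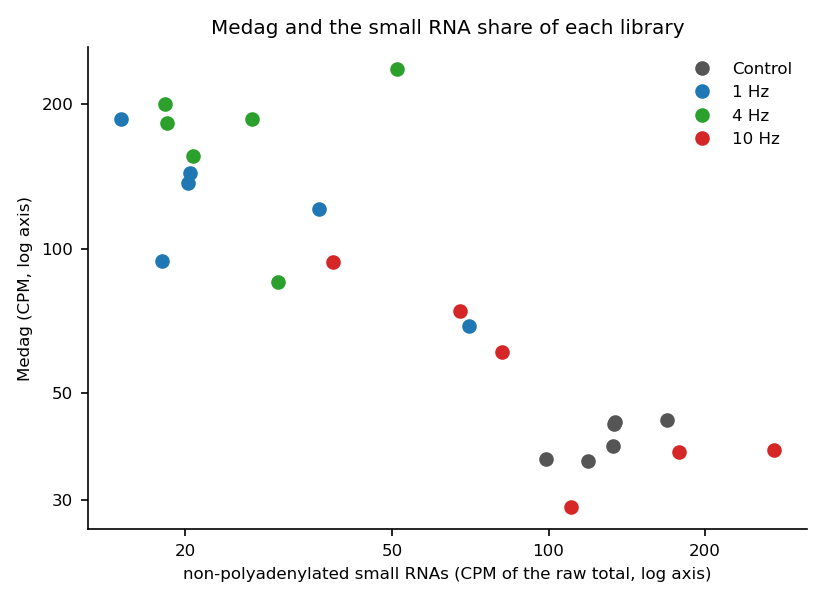
Medag level (CPM, log y axis) against the summed share of non-polyadenylated small RNAs (CPM of the raw total, log x axis), 1 point per library, colored by condition. Control libraries group at 98.8 to 169 CPM of small RNA and 36.2 to 43.9 CPM of Medag, the 1 and 4 Hz libraries lie at 15.03 to 70.2 CPM of small RNA with more Medag, and the 10 Hz libraries spread from 38.5 to 272 CPM.

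Of the other 7 genes, Pparg, Cebpa, Cebpb, Cebpd, and Lpin1 passed the filter on low counts (and would have passed it on the control libraries alone), whereas Fabp4 and Prdm16 did not. A gene was called at an adjusted p below 0.05 (edgeR quasi-likelihood test, Benjamini-Hochberg over 13318 genes) with an absolute log2 fold change above 0.5. At 1 Hz against control, 3 of the 5 tested genes were called higher (9.34% of all genes tested) and 0 lower (8.99% of all genes tested). At 4 Hz, 2 were called higher (10.5%) and 1 lower (9.61%). At 10 Hz, 0 of 5 were called higher (1.24%) or lower (0.623%), and 0 of 5 had an unadjusted p below 0.05 with edgeR or with DESeq2, while limma on log2(TPM + 1) gave 2 such p-values and 0 calls. These comparisons share the 6 control libraries. With the small RNA share as a covariate, 0 of 5 were called at 1, 4, or 10 Hz (edgeR), with 1, 0, and 1 of 5 at an unadjusted p below 0.05. Over all 13318 genes, this fit called 1 higher and 0 lower at 1 Hz, 154 and 96 at 4 Hz, and 122 and 81 at 10 Hz. Beside so few calls over all genes, 0 of 5 says little about these genes. At 1 and 4 Hz this fit has little power, since the share did not overlap control.

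Of the early C/EBP factors, Cebpb rose at 1 and 4 Hz and Cebpd fell at 4 Hz. Cebpb (C/EBP beta, also active in muscle repair) ran from 56.9 (median 69.7) to 97.2 CPM in control and from 91.3 (median 146) to 208 CPM at 1 Hz. It ran from 97.5 (median 113) to 187 CPM at 4 Hz and from 58.3 (median 86.2) to 122 CPM at 10 Hz. All 4 Hz libraries and 5 of 6 at 1 Hz lay above every control library, and the 10 Hz libraries overlapped control. The log2 fold change was 1.03 ± 0.19 (SE) at 1 Hz (edgeR adjusted p = 0.000267), 0.79 ± 0.19 at 4 Hz (adjusted p = 0.00212), and 0.25 ± 0.19 at 10 Hz (adjusted p = 0.497). With the small RNA share as a covariate, it was 0.34 at 1 Hz and 0.14 at 4 Hz and was not called (adjusted p = 0.729 and 0.846).

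Cebpd (C/EBP delta) was a low gene, with 19 to 95 counts per library. It ran from 5.65 (median 7.45) to 9.84 CPM in control, from 4.69 (median 6.01) to 7.32 at 1 Hz, from 4.19 (median 4.87) to 7.11 at 4 Hz, and, at 10 Hz, from 3.68 (median 6.85) to 8.60. Groups overlapped throughout, although 5 of 6 libraries at 4 Hz lay below every control library. Its log2 fold change was -0.56 ± 0.19 at 4 Hz (edgeR adjusted p = 0.0242), opposite in sign to that of Cebpb, and -0.31 ± 0.19 at 1 Hz and -0.25 ± 0.19 at 10 Hz (adjusted p = 0.217 and 0.495). The 4 Hz call was lost without control library 1 (-0.46, adjusted p = 0.0736) or control library 3, or without 4 Hz library 3 or 4, with adjusted p between 0.0501 and 0.0736 in these 4 fits, and with the covariate (-0.40, adjusted p = 0.567).

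Cebpa (C/EBP alpha, which sustains the fat cell state) rose at both lower frequencies. It ran from 15.7 (median 17.3) to 21.6 CPM in control, from 20.6 (median 30.8) to 36.3 at 1 Hz, from 23.96 (median 27.6) to 34.1 at 4 Hz, and from 14.2 (median 22.4) to 28.9 at 10 Hz. No 4 Hz library overlapped control, and at 1 Hz library 1 alone did. The log2 fold change was 0.73 ± 0.15 at 1 Hz (edgeR adjusted p = 0.000520), 0.66 ± 0.15 at 4 Hz (adjusted p = 0.00101), and 0.27 ± 0.15 at 10 Hz (adjusted p = 0.318). With the covariate, the 1 and 4 Hz values were 0.15 and 0.10 (adjusted p = 0.867 and 0.848). On the log2(TPM + 1) scale, the 4 Hz value was 0.43, under the fold threshold, while the median of all genes was -0.16.

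Pparg (PPAR gamma, the central nuclear receptor of fat cell formation) was not called against control at any frequency. It ran from 7.76 (median 9.26) to 10.7 CPM in control, from 10.4 (median 12.7) to 13.5 at 1 Hz, from 9.98 (median 10.6) to 11.5 at 4 Hz, and from 7.55 (median 7.83) to 9.04 at 10 Hz. Its log2 fold change of 0.41 ± 0.10 at 1 Hz had an adjusted p of 0.00311 (edgeR) but lay under the fold threshold, with 5 of 6 libraries above every control. With the covariate, this value was 0.42 (adjusted p = 0.342). The values were 0.18 ± 0.10 at 4 Hz and -0.19 ± 0.10 at 10 Hz (adjusted p = 0.157 and 0.352), and the 4 Hz value turned to -0.04 on the log2(TPM + 1) scale.

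Lpin1 (lipin 1, a phosphatidate phosphatase abundant in muscle) rose at 1 Hz. It ran from 36.2 (median 50.3) to 78.3 CPM in control, from 64.8 (median 97.9) to 107 at 1 Hz, from 61.8 (median 74.2) to 83.7 at 4 Hz, and from 29.5 (median 45.5) to 53.4 at 10 Hz. Control library 2, at 78.3 CPM, stood above the other controls and within the 1 and 4 Hz range. The log2 fold change was 0.82 ± 0.16 at 1 Hz (edgeR adjusted p = 0.000328) and -0.31 ± 0.16 at 10 Hz (adjusted p = 0.282). At 4 Hz it was 0.49 ± 0.16 (adjusted p = 0.0161), just under the fold threshold, and it passed that threshold in 5 of 12 fits that left out a library, reaching 0.65 without control library 2. With the covariate, the log2 fold change of Lpin1 was 0.14 at 1 Hz and -0.16 at 4 Hz (adjusted p = 0.880 and 0.723).

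Fabp4 (the fatty acid carrier that marks fat cells) was near the limit of detection, with 41 counts over all 24 libraries and at most 5 in any one. Pooled over 6 libraries, 9 counts in control, 6 at 1 Hz, 11 at 4 Hz, and 15 at 10 Hz gave 0.264, 0.122, 0.201, and 0.305 CPM of the raw total. The exact 95% Poisson intervals were 0.121 to 0.502, 0.0450 to 0.267, 0.1003 to 0.360, and 0.171 to 0.503 CPM, which all overlap and cover counting error only. Prdm16 had 1 count in all, at 10 Hz. Its 0 counts in control, 1 Hz, and 4 Hz allow up to 0.0881, 0.0612, and 0.0548 CPM (3 counts of the pooled total).

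Set beside each other per transcript length, control tissues held 77.6 ± 14.6 TPM of Cebpb, 21.1 ± 2.17 of Medag, 15.8 ± 5.39 of Lpin1, 11.2 ± 1.28 of Cebpa, 8.18 ± 1.49 of Pparg, 3.04 ± 0.557 of Cebpd, and 0.522 ± 0.385 of Fabp4 (SD, n = 6), with Prdm16 at 0. In this order of levels Medag and Lpin1, Lpin1 and Cebpa, Cebpa and Pparg, and Fabp4 and Prdm16 overlapped between libraries, and the other neighbours did not.

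Contrasts between frequencies test the difference between stimulated conditions directly. At 10 Hz against 1 Hz, 3 of the 5 tested genes were called lower (8.49% of all genes tested), and at 10 Hz against 4 Hz, 2 of 5 were (5.64%). For 4 Hz against 1 Hz, 0 of 5 were called (3% of all genes tested in either direction), with 2 of 5 at an unadjusted p below 0.05 with edgeR and 1 of 5 with DESeq2. Lpin1 was lower at 10 Hz, with a log2 fold change of -1.13 ± 0.16 (SE) against 1 Hz and -0.80 ± 0.16 against 4 Hz (edgeR adjusted p = 9.75e-06 and 0.00102), with no overlap in either pair. For Pparg these values were -0.60 ± 0.10 and -0.38 ± 0.10 (edgeR adjusted p = 5.93e-05 and 0.00831), also with no overlap, and the second value lay under the fold threshold. For Cebpb they were -0.77 ± 0.19 and -0.54 ± 0.19 (edgeR adjusted p = 0.00263 and 0.0420) with overlapping libraries.

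The Cebpb difference between 10 and 4 Hz was not called when 4 Hz library 1 or 6 or 10 Hz library 1, 2, 3, or 5 was left out (adjusted p from 0.0581 to 0.128). Cebpa differed by -0.46 ± 0.14 and -0.39 ± 0.14 (adjusted p = 0.0142 and 0.0509) and was not called, but the first value passed the fold threshold without 1 Hz library 1 or 10 Hz library 4 or 6. Cebpd differed by 0.06 ± 0.19 and 0.31 ± 0.19 (adjusted p = 0.830 and 0.255). With the small RNA share as a covariate, Pparg was still called lower at 10 Hz against 1 Hz (-0.61, adjusted p = 0.0344), whereas Lpin1 was not (-0.55, adjusted p = 0.104) and Cebpb was not (-0.19, adjusted p = 0.741).

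**Figure D3:**
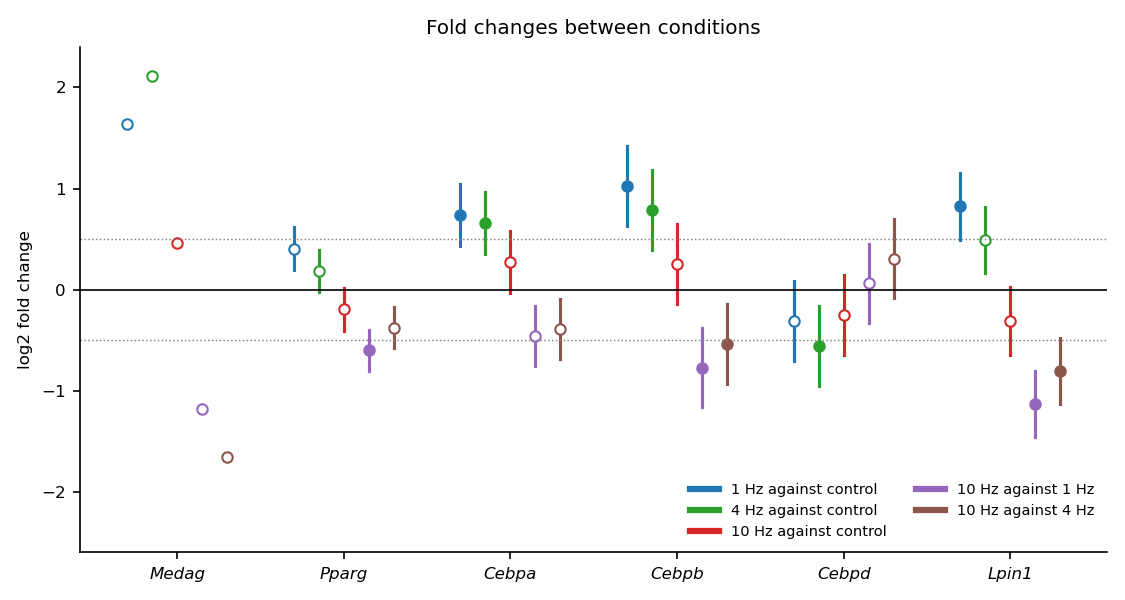
Log2 fold changes (y axis) of the 6 genes that passed the filter in 5 comparisons, with filled points for called genes and dotted lines at a log2 fold change of 0.5 either way. Solid lines are 95% intervals built from an SE derived from the edgeR F statistic. Medag is drawn as points alone because it was chosen by these values. Lpin1 shows the widest contrast among the tested genes, from 0.82 for 1 Hz against control to -1.13 for 10 Hz against 1 Hz.

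Across the 24 libraries, log2 CPM of Cebpa and Cebpb varied together with a Pearson r of 0.93, and with r = 0.84 once each condition was centered on its mean. For Cebpa and Lpin1 these values were 0.80 and 0.75, and for Cebpb and Lpin1 0.82 and 0.69. Medag had r = 0.81 with Cebpa (0.56 within conditions), 0.75 with Lpin1 (0.51), 0.73 with Cebpb (0.37), 0.56 with Pparg (-0.06), and -0.54 with Cebpd (-0.34). These are descriptions without a test, since all points share conditions and library composition.

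Genes whose pattern was most like that of Medag were ranked by Pearson r of log2 CPM over the 24 libraries, among 8984 named genes with a mean of at least 10 CPM. The first 10 were Cap2, Glipr2, Lmcd1, Camk2b, Hspa5, Cyb5r1, Oxct1, Myoz2, Mybpc1, and Lurap1l, with r from 0.96 for Cap2 to 0.94 for Lurap1l. Cap2 encodes an actin-binding protein, Myoz2 a sarcomere protein, Mybpc1 a myosin-binding protein, Camk2b a calcium-dependent kinase, and Hspa5 the chaperone BiP of the endoplasmic reticulum. Cap2 went from 62.1 ± 5.35 CPM in control to 134 ± 14.6 at 1 Hz, 138 ± 14.6 at 4 Hz, and 81.4 ± 21.7 at 10 Hz (SD, n = 6). Hspa5 went from 1617 ± 188 to 3724 ± 962, 4731 ± 767, and 1908 ± 254 CPM. All 10 also stood among the first 100 by Spearman rho, by log2(TPM + 1), and by values centered within conditions. By r, Cebpa stood at rank 383, Lpin1 at 698, Cebpb at 756, and Pparg at 1672.

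The wider program was described by lists of genes, each read beside the share called over all genes (9.34% higher and 8.99% lower at 1 Hz, 10.5% and 9.61% at 4 Hz, 1.24% and 0.623% at 10 Hz). The lists were written with earlier results of these data known, so counts of calls in them are a description. Of 27 tested positive regulators of adipogenesis other than the 8 genes, 10 were called higher and 1 lower at 1 Hz, 3 higher and 3 lower at 4 Hz, and 0 higher and 1 lower at 10 Hz. The median log2 fold changes were 0.37, 0.14, and -0.09, beside -0.01 over all genes in each comparison. In these and the following lists, Klf15, Zfp521, Pax7, Trib2, Prdm1, Csf1r, and Il6 would not have passed the filter on low counts on the libraries of their lower group alone, so that they were tested only because another group was higher, and their calls are given as descriptions. At 1 Hz the largest rises were those of Klf15 (a Krüppel-like factor induced by glucocorticoids, 1.55 ± 0.43 (SE), edgeR adjusted p = 0.00700, under 1 CPM in control) and Bmp4 (a growth factor that commits precursors to fat, 1.18 ± 0.16, adjusted p = 8.38e-06). Bmp4 (0.93 ± 0.16) and the demethylase gene Fto (0.79 ± 0.12) led at 4 Hz (adjusted p = 5.88e-05 and 2.45e-05). The insulin receptor substrates were lower, and Irs1 fell by 0.60 ± 0.11 at 1 Hz and 0.72 ± 0.11 at 4 Hz (adjusted p = 0.000173 and 1.41e-05), and Irs2 fell by 1.40 ± 0.15 at 4 Hz (adjusted p = 2.95e-07). At 10 Hz, Egr2 (an early growth response factor) fell by 0.75 ± 0.18 (adjusted p = 0.0147).

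Among 25 tested negative regulators, 4 were called higher and 4 lower at 1 Hz, 3 and 5 at 4 Hz, and 1 and 1 at 10 Hz, with medians of 0.05, -0.02, and -0.003. The repressor gene Aebp1 rose by 1.33 ± 0.21 at 1 Hz and 1.07 ± 0.21 at 4 Hz (edgeR adjusted p = 3.91e-05 and 0.000238), and Zfp521 by 1.08 ± 0.33 and 0.86 ± 0.33 (adjusted p = 0.0124 and 0.0390). The pseudokinase gene Trib2 fell by 1.16 ± 0.33 and 1.44 ± 0.33 (adjusted p = 0.00755 and 0.00103), and Klf2, which represses the Pparg promoter, fell by 0.65 ± 0.23 and 1.55 ± 0.24 (adjusted p = 0.0316 and 2.20e-05). At 10 Hz, the cytokine gene Il6 rose by 1.39 ± 0.32 and Klf7 fell by 0.85 ± 0.13 (adjusted p = 0.0123 and 0.000603).

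Of 20 tested PPAR coregulators and partners, 1 was called higher at 1 Hz (Ncoa1, 0.54 ± 0.14, edgeR adjusted p = 0.00405), 1 at 4 Hz (Ppargc1a, the mitochondrial coactivator PGC-1 alpha, 0.58 ± 0.20, adjusted p = 0.0239), and 0 at 10 Hz, and 0 were called lower. Of 26 tested adipocyte and PPARG target genes, 6 were called higher at 1 Hz, 6 at 4 Hz, and 2 at 10 Hz, and 0, 1, and 0 lower. Cd36, the fatty acid transporter, rose by 1.04 ± 0.21, 1.497 ± 0.21, and 0.96 ± 0.21 at 1, 4, and 10 Hz (adjusted p = 0.000423, 4.85e-06, and 0.00680). The hormone gene Fgf21 rose by 1.07 ± 0.21 and 1.23 ± 0.20 at 1 and 4 Hz (adjusted p = 0.000307 and 4.47e-05). Plin2, which coats lipid droplets in most cells, fell by 0.70 ± 0.13 at 4 Hz (adjusted p = 0.000117), and the fatty acid carrier gene Fabp5 rose by 0.59 ± 0.13 at 10 Hz (adjusted p = 0.00836). Fabp5 was also called higher at 4 Hz.

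Of 16 tested brown fat genes, 2 were called higher at 1 Hz, 5 at 4 Hz, and 1 at 10 Hz, and 0 lower. Dio2, which activates thyroid hormone, rose by 1.06 ± 0.18, 1.20 ± 0.18, and 0.64 ± 0.18 at 1, 4, and 10 Hz (edgeR adjusted p = 0.000109, 1.53e-05, and 0.0409). Cox8b, a cytochrome c oxidase subunit of muscle and brown fat, rose by 0.81 ± 0.15 and 1.28 ± 0.15 at 1 and 4 Hz (adjusted p = 0.000267 and 7.91e-07). Ucp1, the defining gene of brown fat, had at most 3 counts in any library and was not tested.

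Of 16 tested relatives of the 8 genes, 1 was called higher and 1 lower at 1 Hz, 4 and 2 at 4 Hz, and 1 and 1 at 10 Hz. Cebpg, a further C/EBP gene, went from 47.8 ± 6.98 CPM in control to 80.5 ± 12.9 at 1 Hz and 70.6 ± 8.76 at 4 Hz (log2 fold change 0.76 ± 0.13 and 0.56 ± 0.13, edgeR adjusted p = 8.20e-05 and 0.00103). The heart and muscle carrier gene Fabp3, at 42.6 ± 3.96 CPM in control, rose by 0.88 ± 0.11 at 4 Hz (adjusted p = 2.35e-06), as did the stress factor Ddit3 by 0.64 ± 0.14 (adjusted p = 0.000927), while Prdm1 fell by 1.65 ± 0.54 (adjusted p = 0.0161). Other tested relatives had control levels of 137 CPM for Cebpz, 43.3 for Ppard, 8.53 for Fabp5, 113 for Prdm2, 76.3 for Prdm4, 1.47 for Prdm8, 15.6 for Prdm10, and 20.4 for Prdm15. Mecom, the closest relative of Prdm16, had log2 fold changes of -1.01 ± 0.20, -1.28 ± 0.20, and -0.76 ± 0.19 at 1, 4, and 10 Hz (adjusted p = 0.000336, 1.84e-05, and 0.0205). The other lipin genes, Lpin2 (47.7 ± 4.58 CPM in control) and Lpin3 (41.8 ± 5.13 CPM), had log2 fold changes of 0.13 and 0.27 at 1 Hz (adjusted p = 0.255 and 0.0376) and were not called. Of 21 tested partners of the lipins in glycerolipid synthesis, 1 was called, the acyltransferase gene Gpat3 at 1 Hz (0.79 ± 0.16, adjusted p = 0.000635). With the small RNA share as a covariate, 0 genes of these lists were called at 1 Hz. Those still called at 4 Hz were Cd36, Cox8b, and 4 muscle fibre markers (higher) and Irs2 and Klf7 (lower). Gpam, not called at 4 Hz without the covariate, was called lower there with it (-0.55, edgeR adjusted p = 0.0314). Those still called at 10 Hz were Cd36, Fabp5, Il6, and 3 fibre markers (higher) and Egr2, Klf7, and Mecom (lower). Over all 13318 genes, the fit with the covariate called 154 higher and 96 lower at 4 Hz, and 122 and 81 at 10 Hz.

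**Figure D4:**
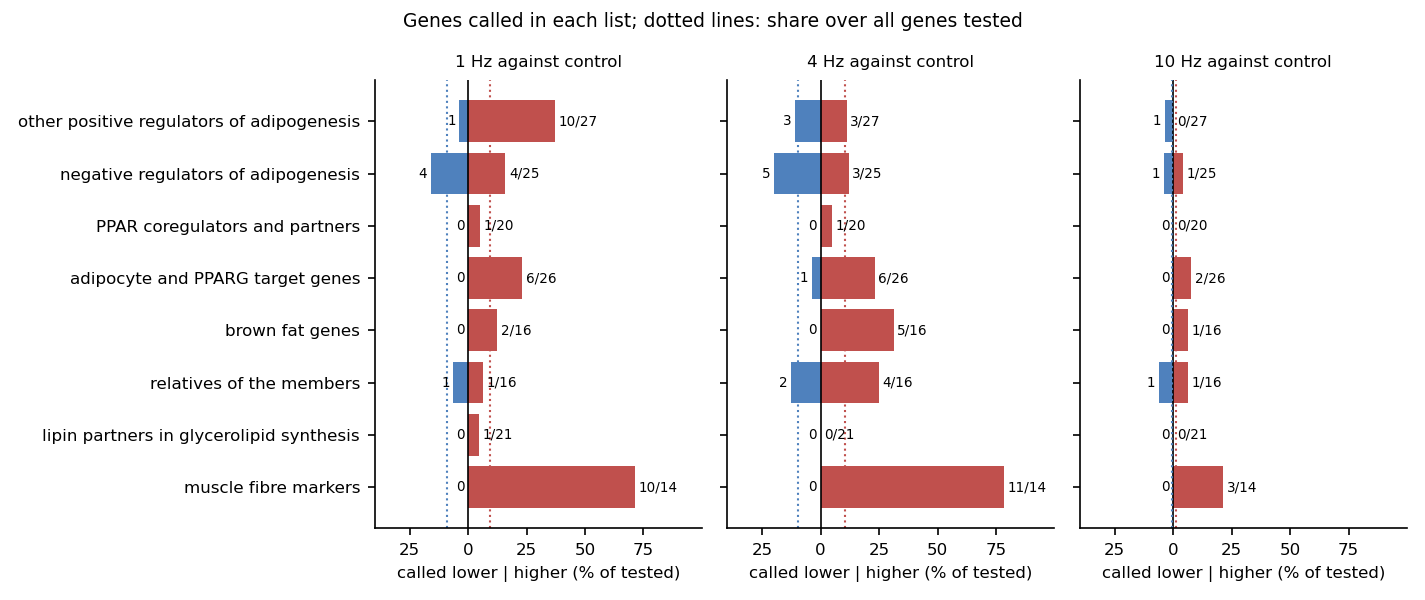
Percent of the tested genes of 8 lists called higher (red, right of 0) or lower (blue, left of 0) at 1, 4, and 10 Hz against control, with the count beside each bar and dotted lines for the share over all genes tested. Positive regulators of adipogenesis had 10 of 27 genes called higher at 1 Hz and 0 of 27 at 10 Hz, and muscle fibre markers had 10, 11, and 3 of 14 called higher.

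Markers of fat cells were at or near 0 in every condition. The 8 adipocyte markers (Adipoq, Plin1, Cidec, Lep, Retn, Cfd, Adig, and Adrb3) summed to at most 14 counts in any library, none passed the filter, and Cfd had 0 counts throughout. Their summed level was 0.568 to 1.74 CPM in control, 0 to 0.814 at 1 Hz, 0.131 to 1.09 at 4 Hz, and 0.417 to 1.69 at 10 Hz. Muscle fibre markers summed to 8208 to 10680.4 CPM in control, 13003 to 18050 at 1 Hz, 13681 to 20863 at 4 Hz, and 9161 to 14611 at 10 Hz, and 10, 11, and 3 of 14 were called higher at 1, 4, and 10 Hz. Among them Myh8 and Myh3, the perinatal and embryonic myosins, rose most at 1 Hz (1.31 ± 0.18 and 1.23 ± 0.19, edgeR adjusted p = 1.11e-05 and 3.98e-05), Myh2 and Myh3 at 4 Hz (1.46 ± 0.19 and 1.26 ± 0.19, adjusted p = 2.35e-06 and 1.80e-05), and Myh3 and Myog at 10 Hz (0.82 ± 0.19 and 0.62 ± 0.15, adjusted p = 0.0123 and 0.0142). In these bulk libraries, more cells of a kind and more RNA per cell cannot be told apart, and the part of the fiber markers in the change of Medag was not tested.

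Markers of other cells were read beside the same shares over all genes (9.34% higher and 8.99% lower at 1 Hz, 10.5% and 9.61% at 4 Hz). At 10 Hz these shares were 1.24% and 0.623%. Each list held few tested genes, so its count of calls says little beside these shares. Of 9 fibroblast and fibro-adipogenic progenitor markers 7 were tested. Of these, 2 were called higher at 1 Hz, 1 higher and 1 lower at 4 Hz, and 0 at 10 Hz. Pdgfrb rose by 1.38 ± 0.35 and 1.81 ± 0.34 at 1 and 4 Hz (edgeR adjusted p = 0.00324 and 0.000193), Col3a1 rose by 0.59 ± 0.18 at 1 Hz (adjusted p = 0.0123), and Dcn fell by 0.59 ± 0.17 at 4 Hz (adjusted p = 0.00695). Their summed level overlapped between control (502 to 1011 CPM) and 1, 4, and 10 Hz (731 to 1062, 588 to 905, and 495 to 754 CPM). Of 7 macrophage and endothelial markers 2 were tested, and 0 were called at 1 or 10 Hz. Csf1r fell by 1.33 ± 0.45 at 4 Hz (edgeR adjusted p = 0.0195), and the blood cell marker Ptprc had at most 1 count in any library. The 7 markers summed to 76.6 to 116 CPM in control, 86.7 to 112 at 1 Hz, 68.4 to 104 at 4 Hz, and 72.4 to 99.2 at 10 Hz. Only 1 of the 7 averaged 1 TPM or more over the 24 libraries, while their sum averaged 136 TPM in control. That 1 gene therefore held most of the summed TPM, and the sum does not speak for the set. The 5 myoblast and satellite cell markers had 2 called higher at 1 Hz (Myod1 and Pax7), 2 higher and 1 lower (Myf5) at 4 Hz, and 0 at 10 Hz. Myod1 was up by 1.17 ± 0.24 and 1.51 ± 0.23 at 1 and 4 Hz (edgeR adjusted p = 0.000456 and 2.15e-05).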

How the data were processed

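RNA-seq libraries of 24 tissues (6 per condition) were grouped by their titles. The authors selected poly(A) RNA, sequenced paired-end reads, and processed them with nf-core/rnaseq (STAR and salmon) against GRCm39. They deposited salmon estimated counts (expected counts, not normalized) and TPM per gene. The library kit was directional. The Ensembl release and whether counting used strand are not given in the sources used here.

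Counts were rounded and kept with filterByExpr by condition (13318 of 56941 genes, 99.8% of counts). After TMM scaling, edgeR 4.0.16 (R 4.3.3, limma 3.58.1) fitted the 24 libraries together by condition, and its quasi-likelihood test gave each contrast. P-values were adjusted by Benjamini-Hochberg over all tested genes, with thresholds of 0.05 for the adjusted p and 0.5 for the size of the log2 fold change. Correlations used log2 CPM with a prior count of 2. The fits were tested on simulated data. Depth was 4.09 to 15.2 M counts per library, which sets the counting error of low genes.

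The 8 genes and all lists, written from general knowledge, were chosen with earlier results of these data known. Genes named from a list are the called genes with the 2 largest rises and 2 largest falls at each frequency (mean of at least 1 CPM), the relatives, the 10 genes most like Medag, and cell type markers. Ucp1 and the markers at or near 0 were named for their lack of counts, after values were seen. Alternatives were DESeq2 size factors, total count scaling, no filter, a mean of at least 5 CPM, DESeq2 1.42.0, limma on logged TPM (pseudocount 1 or 0.1, in genes averaging 1 TPM or more, and with pseudocount 1 also unfiltered), the 12 libraries compared alone, the threshold on the adjusted p without the one on fold, the small RNA share as a covariate, a block for replicate number, and leaving out each library.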

Additional observations from a re-analysis of the deposited data

How the results depend on the processing

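Of the 5 tested genes besides Medag, 3, 3, 0, 0, 3, and 2 were called for 1 Hz, 4 Hz, and 10 Hz against control, 4 Hz against 1 Hz, and 10 Hz against 1 Hz and 4 Hz. These counts stayed within 1.5 times under each alternative except the following. With the small RNA share as a covariate they were 0, 0, 0, 0, 1, and 0. For 10 Hz against 4 Hz the count was 1 with total count scaling and with limma on log2(TPM + 1), log2(TPM + 0.1), and log2(TPM + 1) without a filter. With 1 library left out, the counts were 3 to 3, 2 to 4, 0 to 0, 0 to 0, 3 to 4, and 1 to 2. Signs turned for Pparg at 4 Hz against control with limma on log2(TPM + 1), with or without a filter, and log2(TPM + 0.1) (-0.0406, -0.0406, and -0.0451). With the covariate they turned for Lpin1 at 4 Hz against control (-0.16), for Cebpa and Cebpd at 10 Hz against 1 Hz (0.0311 and -0.0890), and for Cebpa and Cebpb at 10 Hz against 4 Hz (0.0825 and 0.00929). Cebpd at 10 Hz against 1 Hz turned without 10 Hz library 1 or 4 (-0.00993 and -0.0393, the leave-one-out range being -0.0393 to 0.162). None of these reversed values was called. Without a filter, Cebpd at 4 Hz was not called (-0.52, adjusted p = 0.0702, edgeR) and Lpin1 at 4 Hz was (0.53, adjusted p = 0.00365). Over all genes at 4 Hz, calls split 1396 higher to 1280 lower with TMM, 1012 to 1821 with total count scaling (median log2 fold change -0.11), and 677 to 2057 with limma on log2(TPM + 1) (median -0.16), and at 1 Hz 1244 to 1197, 942 to 1595, and 828 to 1157. With the covariate, 154 genes were called higher and 96 lower at 4 Hz, and 122 and 81 at 10 Hz. Of the 10 genes most like Medag, 3 were among the first 10 by Spearman rho, 7 by log2(TPM + 1), and 2 within conditions. The replicate numbers did not pair libraries (36 same-number pairs, r from -0.18 to 0.36, 10 above 0.1, and 5 of 24 libraries closest to their own number), and with the replicate block the counts of calls were 3, 3, 0, 0, 3, and 2. The cause of these changes was not tested. At these depths, Fabp4 and Prdm16 had too few counts to be tested.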
